A study of Homo sapiens with 4 samples.

Results

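TERF1 encodes the telomere repeat binding factor TRF1. TRF1 binds the double-stranded repeats at chromosome ends as a dimer and is a founding member of shelterin, the protein complex that caps telomeres. It limits telomere elongation by telomerase, it is released from telomeres when tankyrase modifies it, and free TRF1 is marked for degradation by ubiquitin ligases such as FBXO4. TERF1 is known as a gene with high transcript levels in undifferentiated embryonic stem cells. The measurements below cover both TERF1 probes of a whole-genome bead array, taken by their probe identifiers GI_9257244-A and GI_9257245-I, which are 2 of 47289 gene probes on each array. In the manufacturer's naming an A probe targets all known transcript variants of a gene and an I probe targets a single isoform, so the probes are called the A probe and the I probe here and their levels are not compared with each other.

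The RNA came from NCCIT, an established human embryonal carcinoma line that carries no engineered allele in the labels. The 12 arrays formed 4 groups of 3, labelled as biological replicates. Mock-treated cells received the transfection reagent Hyperfect alone. The other groups received the same reagent complexed with esiRNA, a pool of short interfering RNAs cut enzymatically from a longer double-stranded RNA, against OCT4 (the POU5F1 transcript), NANOG or SOX2, transcription factors that together maintain the undifferentiated state. All cells were seeded at 70000 per cm2 and harvested at day 2.5 according to the labels. The comparisons ask how silencing each of these factors changed TERF1 transcript. Every value comes from bulk RNA of a single cell line, so fewer cells with the transcript and less transcript per cell cannot be told apart.

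The esiRNA pools define which transcript was silenced, so the primers that bounded their templates are shown for the SOX2 pool and for both NANOG pools of the study, 5′ to 3′ in lower case and without the added promoter tail. The labels do not say which NANOG pool was used on these arrays. The OCT4 pair is not shown. No TERF1 probe sequence was analysed here, and whether the probes also bind transcripts of the 7 TERF1 pseudogenes in the RefSeq gene table was not tested.
SOX2 forward: catcacccacagcaaatgac
SOX2 reverse: ggaaagttgggatcgaacaa
NANOG pool 1 forward: aactggccgaagaatagcaa
NANOG pool 1 reverse: ctcgctgattaggctccaac
NANOG pool 2 forward: gactgagctggttgcctcat
NANOG pool 2 reverse: tctggaaccaggtcttcacc

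The silenced genes were read first. The POU5F1 probe gave raw signals of 610.5, 546 and 536.2 in mock and of 151.5, 133 and 118.5 with OCT4 silenced, with no overlap, and its log2 change was −4.21 (SE 0.126, limma adjusted p = 1.69e-10). POU5F1 has near-identical copies in the genome, and which of them the probe can bind was not analysed here. The NANOG probe gave 342.6, 380.7 and 314.2 in mock and 184.2, 165.6 and 162.1 with NANOG silenced, a log2 change of −1.85 (SE 0.0997, limma adjusted p = 3.02e-07). No probe could be named SOX2 from the tables used here, so the SOX2 knock-down was not checked on its own transcript. With SOX2 silenced, POU5F1 was not detected on any of the 3 arrays and was at least 15.2-fold lower than in mock, and NANOG was likewise not detected and at least 8.52-fold lower. With NANOG silenced, the POU5F1 change was −0.42 (limma adjusted p = 0.0808), which did not pass the test.

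Between 11196 and 12858 probes were detected per array. The median raw signal of an array was 97.5 to 104.7 in mock and 115.9 to 124.2 with OCT4 silenced, ranges that did not overlap. Arrays of a group correlated at r of 0.992 or more across probes, and the highest r between groups was 0.995. No array was left out.

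TERF1 transcript fell in all 3 knock-downs and on both probes. The A probe fell 5.10-fold with OCT4 silenced, 3.03-fold with NANOG silenced and 5.12-fold with SOX2 silenced. The I probe fell 3.38-fold, 2.54-fold and 3.80-fold in the same order. All 9 knock-down arrays lay below all 3 mock arrays on each probe. How many of all probes separated from mock in this way was not counted.

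The raw signal of the A probe was 998.7, 1108.7 and 995.5 on the mock arrays. It was 471.5, 356.4 and 394.4 with OCT4 silenced, 479, 430.5 and 415.3 with NANOG silenced, and 364.3, 313.3 and 291.2 with SOX2 silenced. The highest knock-down array, at 479, was thus well under the lowest mock array, at 995.5, while the OCT4 and NANOG knock-down arrays overlapped each other before normalisation.

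The raw signal of the I probe was 466.1, 506.3 and 443.2 on the mock arrays. It was 353.7, 269.2 and 270.5 with OCT4 silenced, 273.9, 272.3 and 243 with NANOG silenced, and 248.2, 231.1 and 199.5 with SOX2 silenced. The gap between mock and knock-down arrays was narrower on this probe, from 443.2 down to 353.7, and again the groups did not overlap. The first OCT4 knock-down array was the highest of the 9 on this probe, and on the A probe it was second only to a NANOG knock-down array.

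**Figure D1:**
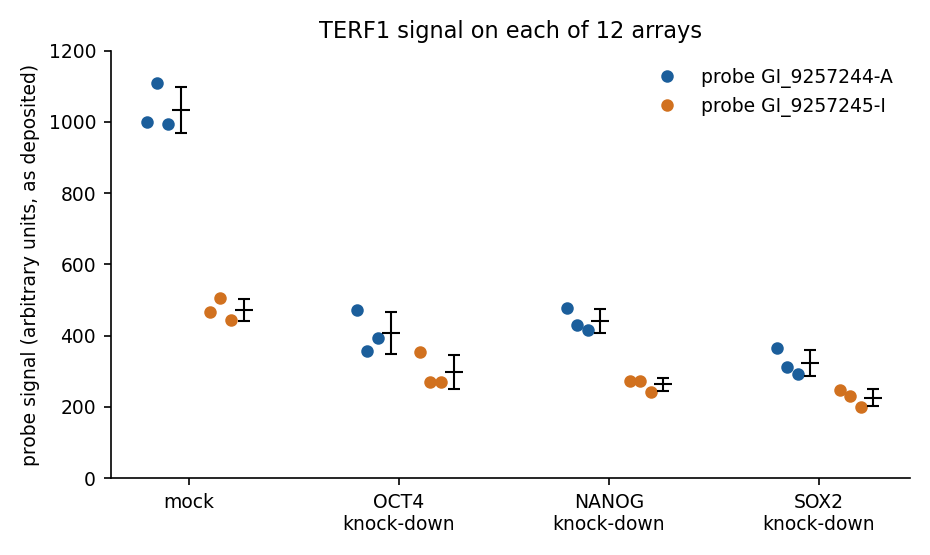
Raw signal of the TERF1 probes (vertical axis, arbitrary units as deposited) on each of the 12 arrays, by group. Points are arrays, and the black marks show the mean and SD of 3 arrays. On both probes every knock-down array lies below every mock array, with the widest gap on the A probe (479 against 995.5).

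Both probes were detected on 12 of 12 arrays, with a lowest detection score of 1 for the A probe and 0.999 for the I probe. The spread among beads that the files give beside each signal was 2.25% to 3.64% of the signal on the A probe and 3.55% to 5.0% on the I probe. Relative to the array median, the A probe stood between 2.67 and 11.4 times and the I probe between 1.83 and 5.19 times. The I probe therefore sat closer to the array median than the A probe did.

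After background correction and quantile normalisation, the log2 signal of the A probe was 10.20 ± 0.04 in mock, 7.85 ± 0.17 with OCT4 silenced, 8.60 ± 0.03 with NANOG silenced and 7.84 ± 0.09 with SOX2 silenced (mean ± SD, n = 3). That of the I probe was 8.96 ± 0.03, 7.20 ± 0.19, 7.62 ± 0.06 and 7.04 ± 0.11 in the same order. Each probe gave the same order of groups, with mock highest, the NANOG knock-down next, and the OCT4 and SOX2 knock-downs lowest and within their spread of each other.

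On the A probe the log2 change against mock was −2.35 with OCT4 silenced (SE 0.083, limma adjusted p = 6.26e-10), −1.60 with NANOG silenced (adjusted p = 2.09e-07) and −2.36 with SOX2 silenced (adjusted p = 6.07e-10). The 95% intervals of the fold were 4.50 to 5.78, 2.67 to 3.43 and 4.52 to 5.81. On the I probe the log2 changes were −1.76 (SE 0.0933, limma adjusted p = 2.93e-08), −1.34 (adjusted p = 2.31e-06) and −1.93 (adjusted p = 1.17e-08). Both probes passed the rule of an adjusted p under 0.05 and a change of at least 1.5-fold, in all 3 comparisons. By that rule 2.94% of all probes were lower with OCT4 silenced, 1.17% with NANOG silenced and 2.87% with SOX2 silenced. Among the 13179 probes detected on at least 3 arrays the shares were 10.2%, 3.98% and 9.95% in the same order. Ordered from the most negative log2 change among all probes, the A probe stood at rank 59, 38 and 61 and the I probe at rank 136, 55 and 121 for OCT4, NANOG and SOX2.

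The calls against mock held under every alternative, but the size of the fall with OCT4 silenced depended on the scaling between arrays. With arrays scaled to a common median it was −1.72 on the A probe and −1.07 on the I probe, and with no normalisation between arrays it was −1.64 and −0.99.

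The knock-downs were then compared with each other. On the A probe, TERF1 was 1.68-fold lower with OCT4 silenced than with NANOG silenced (log2 −0.75, limma adjusted p = 3.51e-05) and 1.69-fold lower with SOX2 silenced than with NANOG silenced (log2 −0.76, adjusted p = 3.09e-05), and both differences passed the rule, as did 2.48% and 2.62% of all probes in that direction. Among probes detected on at least 3 arrays these shares were 8.72% and 9.12%. On the I probe the OCT4 against NANOG difference was −0.42 (limma adjusted p = 0.00894) and the SOX2 against NANOG difference was −0.58 (adjusted p = 0.000789). These lay under the minimum of 1.5-fold, the latter narrowly. The OCT4 against NANOG difference rested on the scaling between arrays: with arrays scaled to a common median it was −0.29 on the A probe, no longer past the rule, and 0.08 on the I probe, with the sign turned.

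Between the OCT4 and SOX2 knock-downs the A probe differed by 0.01 on the log2 scale (95% interval −0.17 to 0.19, limma adjusted p = 0.996) and the I probe by 0.17 (−0.04 to 0.37, limma adjusted p = 0.770). Within this fit the intervals reach 1.14-fold on the A probe and 1.29-fold on the I probe. The difference was wider with arrays scaled to a common median, at 0.40 on the A probe and 0.54 on the I probe (limma adjusted p = 0.0468 and 0.0232), and with no normalisation, at 0.41 and 0.56, all under 1.5-fold with the OCT4 knock-down higher. No probe on the array passed the rule in this comparison by limma, 0% in each direction, although 3380 probes had an unadjusted p under 0.05. That count too rested on the scaling, since limma called 791 probes higher and 3 lower with median scaling, 910 higher and 1 lower with no normalisation, and 17 higher with a larger background offset. The methods' t-test gave 13 lower and 31 higher probes at an unadjusted p under 0.01 and 0 after Benjamini-Hochberg adjustment.

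**Figure D2:**
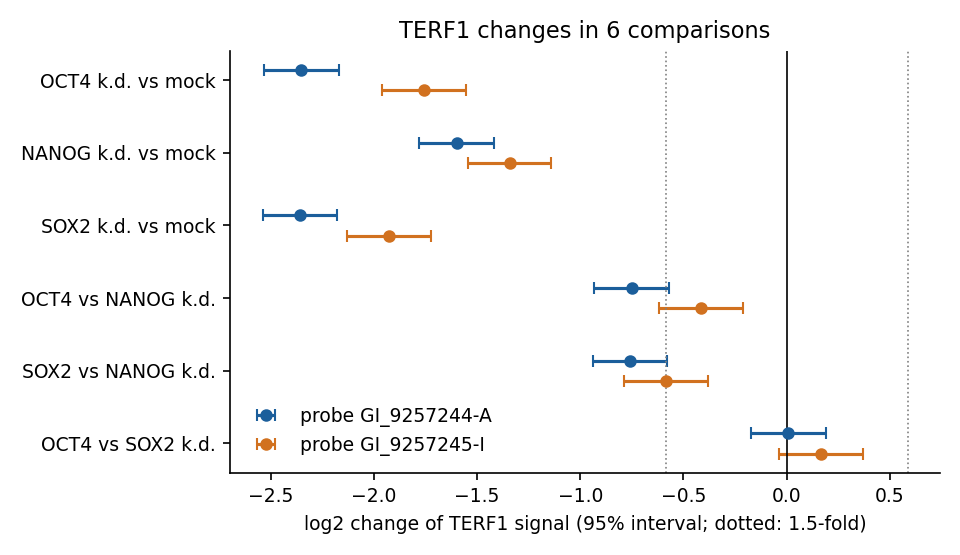
Log2 change of normalised TERF1 signal (horizontal axis) in 6 comparisons, with 95% intervals from limma. The vertical dotted lines mark 1.5-fold. Against mock both probes lie left of the dotted line in each knock-down (k.d.), and between the OCT4 and SOX2 knock-downs both intervals include 0.

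The probes did not fall by the same factor. The fall of the A probe was 1.51 times that of the I probe with OCT4 silenced and 1.35 times with SOX2 silenced, as a ratio of the folds. Both differences passed a test over 733 pairs of an A and an I probe. TERF1, whose probes carry different GI numbers, was added to 732 pairs that share a GI number. Within an array, the I probe minus the A probe was −1.20, −1.22 and −1.29 on the log2 scale in mock. It was −0.56, −0.59 and −0.78 with OCT4 silenced, −1.04, −0.87 and −1.03 with NANOG silenced, and −0.82, −0.70 and −0.90 with SOX2 silenced. The 3 mock arrays were the lowest of the 12 and overlapped with no knock-down array. How many of the 733 pairs separated from mock in this way was not counted.

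The response of the I probe minus that of the A probe was 0.59 with OCT4 silenced (SE 0.116, limma adjusted p = 0.00224) and 0.43 with SOX2 silenced (adjusted p = 0.0173). With NANOG silenced it was 0.26 (limma adjusted p = 0.209), which did not pass. Of the 733 pairs, 21.6%, 18.7% and 11.1% passed in either direction with OCT4, SOX2 and NANOG silenced, so a difference between paired probes was common on these arrays. An exact permutation test over the 12 arrays of the difference among the 4 groups gave F = 21.8 and p = 0.000714, with 11 of 15400 groupings at least as large. Without mock replicate 3 or without SOX2 knock-down replicate 2, the SOX2 value no longer passed (limma adjusted p = 0.055 and 0.0732). The I probe had the lower signal relative to the array median, and the part this plays in the difference was not tested.

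**Figure D3:**
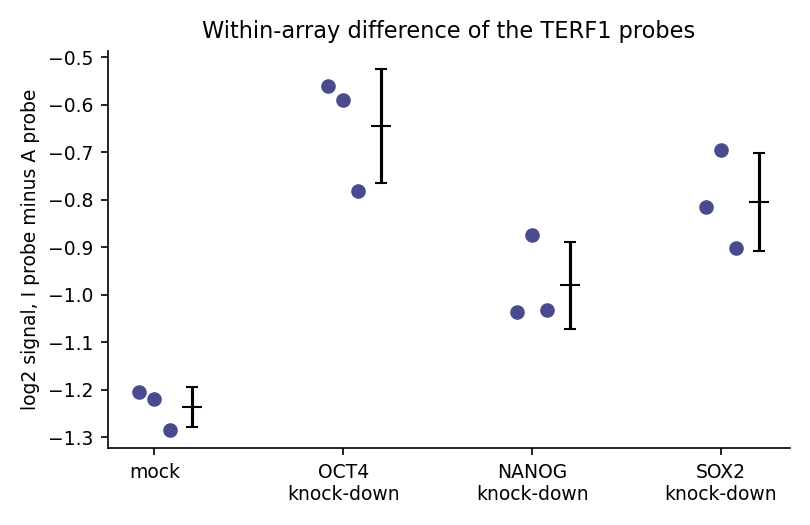
Log2 signal of the TERF1 I probe minus that of the A probe on the same array (vertical axis), by group. Points are arrays, and black marks show mean and SD of 3 arrays. The mock arrays lie lowest (−1.24 ± 0.04) and the OCT4 knock-down arrays highest (−0.64 ± 0.12).

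Other telomere genes were looked up from fixed lists, but probe names came from the study's lists of changed genes on these same arrays and cover few members. Named were 3 of 6 shelterin genes, 3 of 13 TERF1 modifiers and binding proteins, 2 of 10 telomerase genes and 1 of 15 genes of telomere replication and repair. Shares over the lists are void for that reason, and members were named because they had changed, so their counts are not independent evidence.

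Of the named shelterin genes, TERF1 was the one that fell. TERF2, the paralogue TRF2 that protects chromosome ends from being joined, gave raw signals of 458.6, 524.2 and 494.9 in mock, of 1371.7, 1099 and 1109.3 with OCT4 silenced, of 710.4, 715 and 676.5 with NANOG silenced and of 960, 876.6 and 761.1 with SOX2 silenced. Every knock-down array was higher than every mock array on this raw signal. The median of all probes was also higher with OCT4 silenced, at 115.9 to 124.2 against 97.5 to 104.7 in mock. The share of all probes that separated from mock in this way was not counted. After normalisation TERF2 rose by 0.69 on the log2 scale with OCT4 silenced (SE 0.0699, limma adjusted p = 1.37e-05) and by 0.61 with SOX2 silenced (adjusted p = 3.87e-05). Its value with NANOG silenced was 0.34 (limma adjusted p = 0.0114), under 1.5-fold. By this rule 3.81%, 3.6% and 1.37% of all probes were higher with OCT4, SOX2 and NANOG silenced. TINF2, which encodes TIN2, the bridge between TRF1 and TRF2, rose by 0.62 with SOX2 silenced (limma adjusted p = 0.00099). Its values with OCT4 and NANOG silenced were 0.54 and 0.25, neither past the rule. With SOX2 silenced, the calls of TERF2 and TINF2 were lost without mock replicate 1, at 0.56 and 0.52, and that of TINF2 also without SOX2 knock-down replicate 1, at 0.55. They were lost as well with a larger background offset, at 0.56 and 0.41.

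Among genes placed in the list of TERF1 modifiers and binding proteins, SIAH2, a ubiquitin ligase, changed most of those that could be named. Whether SIAH2 acts on TRF1 was not tested here. The raw signal of SIAH2 was 188.5, 182 and 179.7 in mock and 726, 644.7 and 610.2 with OCT4 silenced, and the groups lay far apart. SIAH2 rose 3.14-fold with OCT4 silenced (limma adjusted p = 1.37e-09) and 3.32-fold with SOX2 silenced (adjusted p = 8.41e-10), and its log2 value with NANOG silenced was 0.31. FBXO4, which recognises free TRF1 for degradation, has a pair of probes. Its I probe rose by 0.93 with OCT4 silenced and by 0.93 with SOX2 silenced (limma adjusted p = 0.00146 and 0.0015), and its value with NANOG silenced was −0.05, a sign that turned with arrays scaled to a common median and with no normalisation. Its OCT4 and SOX2 calls were lost with a larger background offset, at 0.49 and 0.50. Its A probe was not detected in mock and was at least 1.37-fold higher with OCT4 silenced, where it was detected on 3 of 3 arrays. The bound sets the mean of the knock-down arrays against the lowest signal of a detected probe on each mock array. PLK1, a mitotic kinase that phosphorylates TRF1, fell by 0.94 and 0.88 with OCT4 and SOX2 silenced (limma adjusted p = 3.02e-06 and 5.83e-06), calls that were lost with no normalisation between arrays at −0.19 and −0.53 and, for OCT4, with median scaling at −0.27, and its value with NANOG silenced was −0.07, which turned sign with median scaling and with no normalisation.

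TERT, the catalytic subunit of telomerase, fell by 0.72 with OCT4 silenced (SE 0.126, limma adjusted p = 0.00137), and the call was lost with median scaling at −0.20, with no normalisation at −0.12, with a larger background offset at −0.37 and with rank-invariant scaling at −0.79 (adjusted p = 0.0663). Its value with SOX2 silenced was −0.58 (limma adjusted p = 0.00645), just under 1.5-fold, and it was −0.08 with NANOG silenced, a sign that turned with median scaling and with no normalisation. RUVBL1, a helicase needed to assemble telomerase, gave −0.53, −0.06 and −0.47 with OCT4, NANOG and SOX2 silenced, none past the rule, and its OCT4 and NANOG values turned sign with median scaling and with no normalisation. DCLRE1B, the Apollo nuclease that works at telomeres, gave 0.51, 0.26 and 0.41 in the same order, none past the rule.

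**Figure D4:**
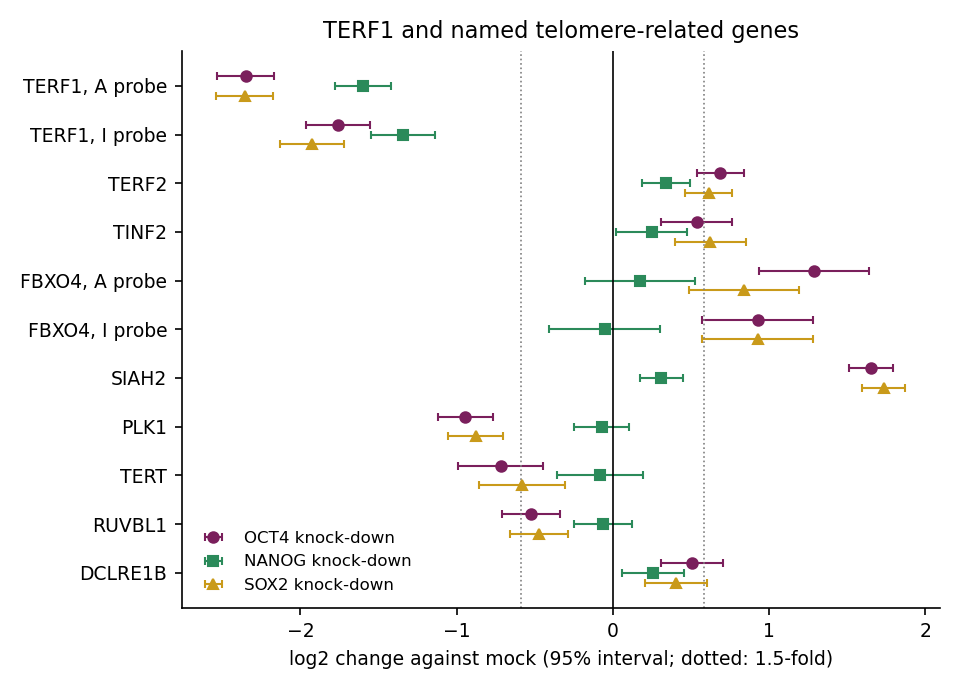
Log2 change against mock (horizontal axis, 95% intervals from limma) of the TERF1 probes and of the other telomere-related probes that could be named, for each knock-down. The dotted lines mark 1.5-fold. The TERF1 probes lie furthest to the left, TERF2 and SIAH2 lie to the right of 0, and with NANOG silenced the TERF1 probes alone lie past 1.5-fold.

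Markers of the undifferentiated state and of differentiation changed along with TERF1 in the OCT4 and SOX2 knock-downs, and fewer of them with NANOG silenced. Of 9 named probes for 8 genes of the undifferentiated state, 9 fell with OCT4 silenced, 6 with NANOG silenced and 8 with SOX2 silenced, beside 2.94%, 1.17% and 2.87% of all probes. The count with OCT4 silenced includes POU5F1, and that with NANOG silenced includes NANOG, the transcripts that the esiRNA itself targeted. All 9 probes had names because the study listed them as changed on these same arrays. Their counts are therefore not independent evidence and cannot be weighed against the share of all probes. The 9 became 8 with median scaling or no normalisation, where LIN28A was no longer called (−0.12 with median scaling). Its raw mean was 3259 in mock and 3221 with OCT4 silenced. Of 8 mesoderm-like genes, a list the study itself drew from these samples, 8 rose with OCT4 silenced and 8 with SOX2 silenced, and with NANOG silenced 1 rose, HAND1, by 1.87 on the log2 scale, beside 3.81%, 3.6% and 1.37% of all probes with OCT4, SOX2 and NANOG silenced. ACTC1, COL1A1, MSX1 and RUNX1 were detected on 0 of 3 mock arrays. The summed raw signal of the 8 mesoderm-like probes was 1280.5 to 1320.8 in mock, 2869.2 to 2946.3 with NANOG silenced, 5984 to 7553.7 with SOX2 silenced and 9048.8 to 10800.1 with OCT4 silenced, so the groups did not overlap. The summed signals include background. Most of the sum was HAND1 in each knock-down but not in mock, where HAND1 gave 497.7, 591.4 and 521.5. Without it the sum was 729.4 to 799.2 in mock and 790 to 862.2 with NANOG silenced, which overlapped, and it was 2148.6 to 2442.3 with SOX2 silenced and 2792.5 to 3242.4 with OCT4 silenced. The part that a change of cell state plays in the TERF1 values was not tested. CCNA2, the cyclin that is the single named proliferation gene, fell by 0.75 with OCT4 silenced and by 0.83 with SOX2 silenced, and its value with NANOG silenced was −0.31. The CCNA2 call with OCT4 silenced was lost with median scaling at −0.16, and its raw arrays overlapped, at 928.8 to 1090.8 in mock and 888.4 to 1148.4 with OCT4 silenced. With no normalisation between arrays the SOX2 call was lost as well, at −0.57.

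The TERF1 response to NANOG silencing was set against its response to OCT4 silencing and against the 9 named undifferentiated-state probes. On the log2 scale the NANOG knock-down gave 68% of the OCT4 knock-down's change on the A probe and 76.3% on the I probe. The share was 9.96% for POU5F1, 16% for CRIPTO (TDGF1, a co-receptor of NODAL signalling), 23.9% for UTF1, 25.0% for GDF3, 39.9% for DPPA4, and it was 26.4% and 53.9% for the DNMT3B probes, which report a DNA methyltransferase. POU5F1 was detected on only 1 of 3 arrays with OCT4 silenced. NANOG was detected on 0 of 3 there, so its fall of at least 9.34-fold gives a share of at most 57.3%. The TERF1 shares were higher than those of these named probes, a description for which the difference between genes was not tested. That comparison includes direct silencing, since the OCT4 esiRNA targeted POU5F1 itself and the NANOG esiRNA targeted NANOG itself. LIN28A gave −0.64 with OCT4 silenced and 0.13 with NANOG silenced, so it has no such share. The TERF1 shares move with the scaling between arrays, since with arrays scaled to a common median they were 83.4% on the A probe and 107% on the I probe, and with no normalisation 86.8% and 115%. The shares of the listed probes were not recomputed under these scalings, and undifferentiated-state genes outside the list were not compared. With NANOG silenced, the TERF1 A probe changed by −1.60, beyond GDF3 at −1.33 and short of NANOG itself at −1.85.

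**Figure D5:**
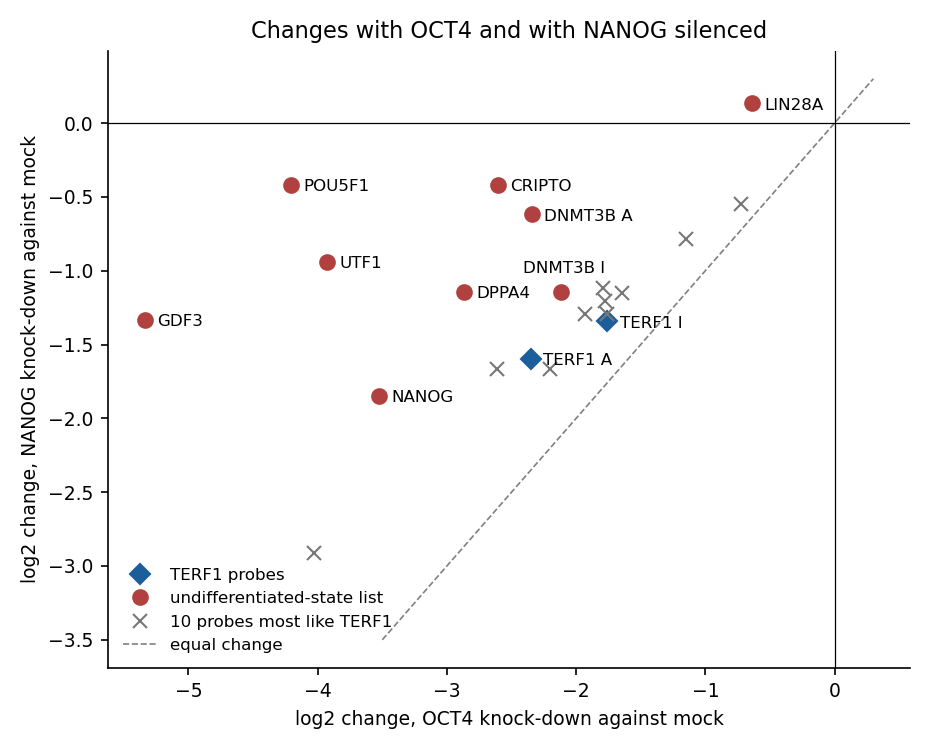
Log2 change against mock with OCT4 silenced (horizontal axis) and with NANOG silenced (vertical axis) for the TERF1 probes, 9 probes of the undifferentiated-state list and the 10 probes whose profile was most like TERF1. The dashed line marks an equal change in both. POU5F1 and NANOG were themselves targets of the esiRNA. The TERF1 probes lie nearer the dashed line than the POU5F1, CRIPTO, UTF1, GDF3, DPPA4 and DNMT3B probes do, at 68% and 76.3% of the OCT4 value, and the NANOG point is a fitted value although that probe was not detected with OCT4 silenced.

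The probes whose signal followed TERF1 most closely over the 12 arrays were picked by Pearson correlation with the mean of the centred TERF1 probes, among 13176 probes detected on at least 3 arrays. The points share 4 groups, so the correlation mostly describes the group means and no p is given. The TERF1 probes correlated with each other at 0.991, and 185 candidates exceeded 0.95. The top 10 were LOC400961 (r = 0.995), LOC221683 (0.994), ASNS, which makes asparagine (0.993), LOC375662 (0.991), CTH, a cystathionine lyase (0.991), NSMAF (0.991), PNMA2 (0.991), GOT1, a cytosolic aspartate aminotransferase (0.99), PCK2, the mitochondrial form of PEP carboxykinase (0.99), and an expressed-sequence cluster without a gene name (0.99). Their log2 changes with OCT4 silenced ran from −4.03 for LOC221683 to −0.73 for GOT1, and with NANOG silenced from −2.91 to −0.54 for the same genes. The change with NANOG silenced was 62.3% to 75.7% of that with OCT4 silenced in these 10 probes, which were picked for their likeness to TERF1. ASNS, at −1.78 and −1.20, lay close to the TERF1 I probe.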

How the data were processed

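RNA of 12 arrays (4 groups of 3) was hybridised to a 1-colour human bead array by the authors, who read it with BeadStudio (version 1.0 in the submitters' processing notes). The deposited array files hold, per probe, an averaged signal intensity that was not background-subtracted, a bead spread whose definition (SD or SE) is not stated, and a detection score from 0 to 1. A second deposited table holds the authors' group mean intensity after background subtraction and rank-invariant normalisation, used here as an alternative with no test. The labels give harvest at day 2.5, whereas the study's methods give an earlier day and another seeding density.

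Intensities were background-corrected by limma 3.58.1 in R 4.3.3 (normexp with the background taken from detection scores, offset 16), quantile-normalised and put on the log2 scale. The offset makes fold changes of dim probes smaller. The 4 bacterial control rows were dropped. A limma fit over 12 arrays with group means gave 6 contrasts, two-sided, with Benjamini-Hochberg adjustment over 47289 probes and no filter on dim probes. A probe was called at an adjusted p under 0.05 and a change of at least 1.5-fold, and counted as detected at a score of 0.99. Where a group was not detected on any array, a bound replaces its fold in the text. The bound uses the lowest signal of a detected probe on each array of that group. The figures plot the fitted value for such a group. The 2 TERF1 probes were also set against each other as a within-array log2 difference, in a limma fit over 732 pairs of A and I probes sharing a GI number plus TERF1. The planned fit per gene name could not be made, since 2985 probes have a name here, 2481 of them updated through RefSeq. Names were taken from the study's lists of changed probes, without their values, so named genes were chosen on these samples. An exact test of 3 arrays against 3 cannot give a p below 0.1, so single-gene comparisons rest on limma.

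The genes named are the TERF1 probes, shelterin members, list members called in a knock-down, the silenced genes and the 10 probes most correlated with TERF1. RUVBL1 and DCLRE1B, which were not called, were added after their values were seen. The members and lists were chosen with earlier results of these data known. The fit was tested on simulated data with independent noise, no shift between arrays and no normalisation step. That test therefore does not cover the scaling between arrays. Pairing by replicate number was not seen in the normalised signal: over 18 pairs with the same number, r of the deviations from group means ran from −0.27 to 0.28, and 4 exceeded 0.1. Replicate 1 had the highest raw array median in each group, at 104.7 (mock), 124.2 (OCT4), 108.7 (NANOG) and 115.2 (SOX2). Quantile normalisation removes such array-wide differences, so this check cannot exclude pairing. Alternatives were another offset, rank-invariant scaling, median scaling, no normalisation, detected probes only, only the groups compared, a replicate block, the methods' t-test and each array left out.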

Additional observations from a re-analysis of the deposited data

How the results depend on the processing

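The 6 calls of TERF1 against mock kept their direction and call under all alternatives, with lowest and highest log2 values, over alternatives that kept all 12 arrays, of −2.42 and −1.64 (A probe) and −1.78 and −0.99 (I probe) for OCT4, −1.71 and −1.42, and −1.46 and −1.14 for NANOG, and −2.38 and −2.05, and −1.93 and −1.55 for SOX2. With an array left out the A probe ran from −2.42 to −2.26 for OCT4, −1.62 to −1.58 for NANOG and −2.41 to −2.33 for SOX2. The I probe ran from −1.87 to −1.69, −1.37 to −1.32 and −1.97 to −1.87 in the same order. Over all 15 TERF1 results, 305 of 321 comparisons with an alternative changed neither direction nor call. The OCT4 against NANOG difference on the A probe lost its call with median scaling (−0.29) and with no normalisation (−0.22), and on the I probe it turned sign (0.0796 and 0.15). The OCT4 against SOX2 difference on the A probe was −0.0413 from the authors' group means and −0.0613 to 0.10 with each array left out in turn, and it reached 0.41 with no normalisation. On the I probe it ran from 0.12 to 0.56. The SOX2 against NANOG difference on the I probe was −0.63 to −0.52 with an array left out, and it was called without NANOG knock-down replicates 1 or 3 or SOX2 knock-down replicates 1 or 2. The I minus A response to NANOG passed with an offset of 50 (0.34, limma adjusted p = 0.0441), and that to SOX2 was 0.38 to 0.48 with an array left out. The cause of these changes was not tested.

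Values near 0 of other telomere genes turned sign with median scaling and with no normalisation: RUVBL1 to 0.0347 and 0.12 (OCT4), and with NANOG silenced RUVBL1 to 0.11 and 0.13, PLK1 to 0.15 and 0.16, TERT to 0.0890 and 0.10 and the FBXO4 I probe to 0.0373 and 0.0518. With an array left out and NANOG silenced, TERT ranged from −0.236 to 0.00627 and the FBXO4 I probe from −0.22 to 0.21.

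With all 12 arrays kept, the number of probes called moved more than 1.5 times: with OCT4 silenced 296 to 1386 were lower and 1067 to 7294 higher, against 1389 and 1802 in the reported fit, with NANOG silenced 168 to 546 and 179 to 1223, against 555 and 647, and with SOX2 silenced 545 to 1348 and 1081 to 3187, against 1356 and 1704. For OCT4 against SOX2 it ran from 0 to 13 lower and 0 to 910 higher, against 0 and 0. With an array left out, the lower calls ran from 1350 to 1492, 473 to 642 and 1321 to 1431 with OCT4, NANOG and SOX2 silenced. The lower share of calls with OCT4 silenced was 43.5%, and 29.1% with rank-invariant scaling, 5.45% with median scaling and 3.90% with no normalisation, which moved the median of all probes by 0.11. For NANOG it was 46.2% and fell to 18.0% with median scaling, and for SOX2 44.3% and 19.0%. A fit with the replicate number as a block changed no TERF1 call, with the A probe at −2.35, −1.60 and −2.36 for OCT4, NANOG and SOX2, and 3 of 12 arrays correlated best with an array of their own number. The 3 arrays per group limit the precision.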
